A study of Mus musculus with 6 samples.

Results

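Fibronectin, osteopontin and the matricellular proteins were followed through 10 genes, out of 23951 genes in the expression table: Fn1, Spp1, Sparc, Tnc, Tnxb, Postn, Thbs1, Thbs2, Cyr61 and Ctgf. The genes were taken by symbol, with earlier results of these data known, and 7 of the 10 reached the level needed for the main test. RNA came from 3 mouse melanoma cell lines, with 2 libraries of each line. B16-F1, the parental line, has low metastatic potential and was bought from a public cell bank. B16-F1R2, the lymph node line, was grown from a metastasis in a lymph node, and B16-F1R2L, the lung line, from a lung metastasis that itself derived from a lymph node metastasis. The labels list no treatment, no allele and no age for any of them, and all were cultured in the same serum-containing medium. The labels speak of RNA from cells or xenografts, and the study's methods of cells. Each group is 1 cell line, and both metastatic lines are labelled as coming from another laboratory than B16-F1, so the line and its source cannot be told apart. No source used here says if the 2 libraries of each line were grown as separate cultures, so p-values measure only the spread between these libraries.

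Fibronectin is secreted by cells and assembled by integrins into fibrils, to which collagens and other matrix proteins then attach. Matricellular proteins are also secreted into the matrix, but they act mainly on receptors, growth factors and proteases and build little structure themselves. Osteopontin, the product of Spp1, is a phosphorylated glycoprotein of bone and of many tumours that binds integrins and CD44. Cyr61 and Ctgf, also named Ccn1 and Ccn2, are textbook target genes of the coactivators YAP and TAZ with their TEAD partners.

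Levels are given as FPKM (reads per kilobase of transcript and per 1000000 mapped reads), as the authors deposited them. The table holds no read totals, and the depth estimated from the smallest values was 12300000 to 14400000 reads per library. Differences are log2 fold changes of FPKM + 0.1 from limma, a linear model with a shared estimate of the spread, adjusted over the 11379 genes that reached 1 FPKM in 2 or more libraries. A difference was called at an adjusted p under 0.05. This scale understates the change of low values. The melanocyte identity of the lines was checked with 7 markers, all of which exceeded 1 FPKM in every library and summed to 15000 FPKM in the parental line, 7910 to 8120 in the lymph node line and 8920 to 8930 in the lung line. The 6 markers other than Mitf were called lower in both metastatic lines, from Tyr at log2 fold changes of -3.7 and -2.99 to Sox10 at -0.46 and -0.39. Mitf did not pass in the lymph node line (-0.15, limma, adjusted p = 0.11) and was called higher in the lung line (0.4, limma, adjusted p = 0.0032), each against B16-F1. The part of these markers in the results was not tested. Of 7 endothelial markers, Cdh5, Kdr, Tek and Lyve1 were listed at 0 in every library, and the list summed to 1.86 to 3.19 FPKM. Pecam1, also on that list, was at 0 in both B16-F1 libraries, 0.758 and 0.752 FPKM in the lymph node line and 1.09 and 1.26 in the lung line, and so moved with Fn1, Spp1 and Tnxb (log2 fold changes 3.1 and 3.67, limma, adjusted p = 0.00017 and 8.2e-05), whereas Prox1, the other tested gene of the list, was called lower in both (-0.84 and -0.49, limma, adjusted p = 0.0057 and 0.043, the latter lost in 9 of 17 alternatives). Their part in those results was not tested. The 4 keratinocyte markers summed to at most 0.06.

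The start sites of 4 of the genes are shown because Spp1 and Tnxb were under 1 FPKM in the parental line and above it in the metastatic lines, Thbs2 was higher in the parental line, though under 1 FPKM there too, and Cyr61 is the gene, of those matched, whose start holds a TEAD motif. RefSeq promoters on GRCm38.p6 were matched by symbol for 7 of the 10 genes, Cyr61 under the name Ccn1, while Fn1, Thbs1 and Ctgf had no entry. Each stretch runs 5′ to 3′ on the gene's strand from 250 bases before to 50 bases after the annotated start, and capitals mark matches to 6 motifs searched on both strands. Spp1 had 2 entries, of which the first is shown and described. The second, at chr5:104435942-104436241, matched none of the 6 motifs. On the plus strand, the stretches are Spp1 at chr5:104434861-104435160 and Tnxb at chr17:34670285-34670584. On the minus strand, they are Thbs2 at chr17:14694213-14694512 and Cyr61 at chr3:145649936-145650235.
Spp1: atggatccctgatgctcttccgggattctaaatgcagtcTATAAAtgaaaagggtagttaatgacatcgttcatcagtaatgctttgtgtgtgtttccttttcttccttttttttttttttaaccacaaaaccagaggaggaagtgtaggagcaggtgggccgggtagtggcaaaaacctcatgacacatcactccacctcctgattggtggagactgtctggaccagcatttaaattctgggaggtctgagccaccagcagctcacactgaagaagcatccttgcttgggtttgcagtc
Tnxb: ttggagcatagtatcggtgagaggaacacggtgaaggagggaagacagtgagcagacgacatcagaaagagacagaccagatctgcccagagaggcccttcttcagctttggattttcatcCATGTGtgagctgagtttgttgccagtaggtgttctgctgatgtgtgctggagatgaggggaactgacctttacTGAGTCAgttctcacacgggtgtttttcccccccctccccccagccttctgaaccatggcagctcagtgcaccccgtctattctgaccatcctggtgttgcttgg
Thbs2: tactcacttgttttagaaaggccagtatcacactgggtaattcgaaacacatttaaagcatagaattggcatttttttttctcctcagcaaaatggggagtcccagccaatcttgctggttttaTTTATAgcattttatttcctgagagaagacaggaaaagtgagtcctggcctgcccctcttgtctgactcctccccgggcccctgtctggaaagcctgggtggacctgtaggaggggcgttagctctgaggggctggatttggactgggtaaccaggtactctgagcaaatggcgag
Cyr61: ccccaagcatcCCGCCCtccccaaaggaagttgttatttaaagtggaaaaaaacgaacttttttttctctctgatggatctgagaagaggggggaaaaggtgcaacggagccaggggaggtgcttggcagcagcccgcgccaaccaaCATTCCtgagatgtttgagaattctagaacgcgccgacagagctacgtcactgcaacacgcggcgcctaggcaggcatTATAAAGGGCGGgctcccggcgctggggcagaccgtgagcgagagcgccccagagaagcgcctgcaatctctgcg

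The motifs and their share among 32851 RefSeq promoters of the same length were the TATA box (TATAAA, 13.6%), the TEAD motif (GGAATG, 14.7%), the AP-1 motif (TGANTCA, 7.81%), the M-type E-box bound by MITF (CATGTG, 14.2%), the GC box (GGGCGG, 35.7%) and the CArG box bound by SRF (1.63%). Cyr61 held a TATA box at -25, a TEAD motif on the opposite strand at -103, and GC boxes at -239 and -19, the latter adjoining the TATA box. Tnxb held an AP-1 motif at -55, which matched on both strands, and an E-box at -129. Spp1 held TATAAA at -211, and Thbs2 held it on the opposite strand at -126, both farther from the start than a TATA box usually lies. The Cyr61 stretch had 20 CpG dinucleotides and 57.0% G and C, whereas Spp1 had 3, Tnxb 5 and Thbs2 4 CpG, with a median of 7 over all promoters. These matches describe letters in the window and say nothing about what binds there in these cells.

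The clearest difference among the 10 genes was the presence of Fn1, Spp1 and Tnxb RNA at higher levels in both metastatic lines than in B16-F1. Thbs2 and Ctgf were lower there, and Thbs1 was called lower in B16-F1R2L. The Thbs1 call was lost in 8 of 15 alternative settings, and each of the Ctgf calls in 3 of 16. The comparisons with B16-F1 share its 2 libraries. Sparc was by far the most abundant member in every library and differed little. Between the metastatic lines, B16-F1R2L held more Spp1 and less Sparc. Its lower Fn1 and Cyr61 were called too, but these calls were lost in 10 and 7 of 17 alternative settings.

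**Figure D1:**
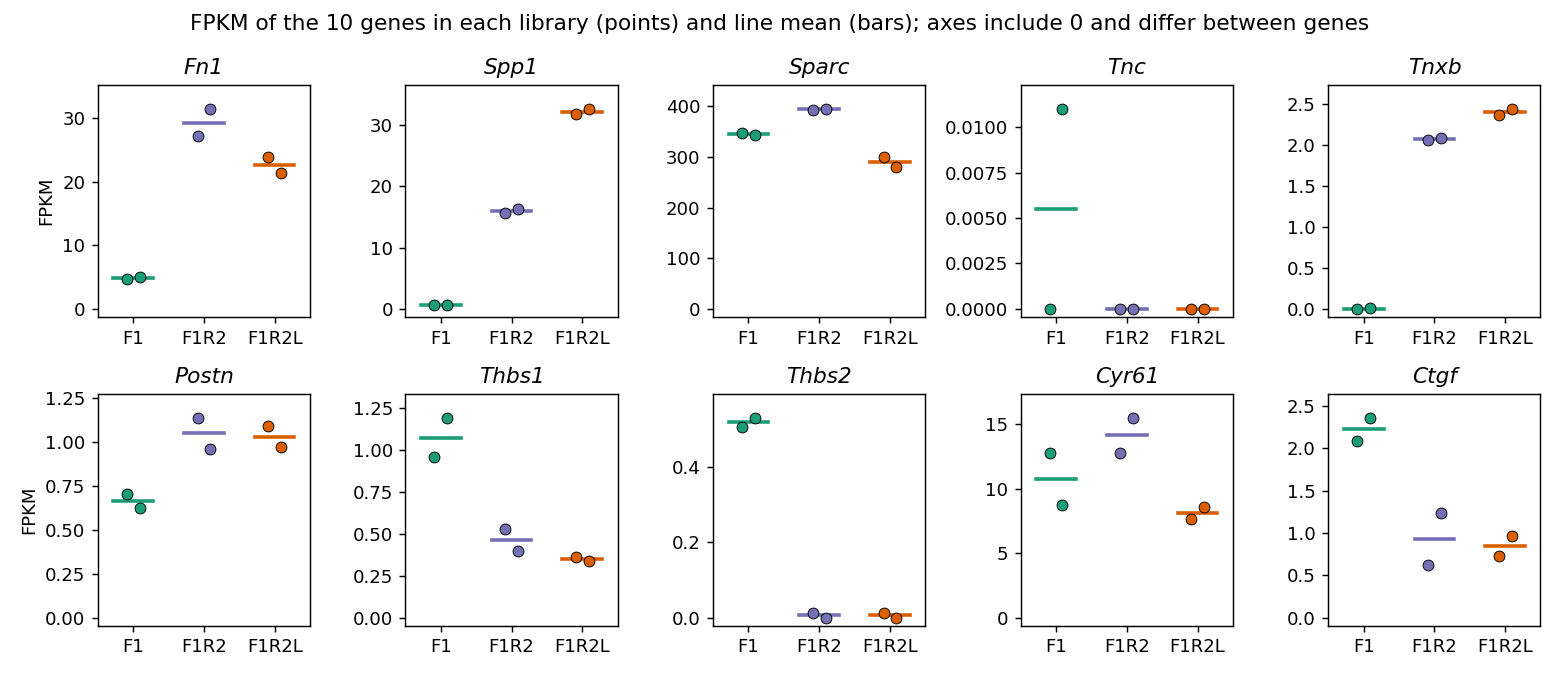
FPKM of each of the 10 genes in the 6 libraries (points) with the mean of the 2 libraries of each line (bars), on axes that include 0 and differ between genes. Fn1, Spp1 and Tnxb sat higher in both metastatic lines than in B16-F1, whereas Thbs1, Thbs2 and Ctgf sat lower.

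Fn1 encodes fibronectin and lies on chromosome 1 from 71632094 to 71699774 on the minus strand of NCBIM37, the assembly that mm9 names and that holds for all gene positions below. Fn1 measured 4.74 and 4.95 FPKM in the B16-F1 libraries, 27.1 and 31.4 in the lymph node line, and 23.8 and 21.3 in the lung line. All 4 metastatic libraries were therefore above both B16-F1 libraries, and both B16-F1R2 libraries were above both of B16-F1R2L. The mean rose from 4.85 ± 0.152 (SD, n = 2) in the parental line to 29.3 ± 3.01 (SD, n = 2) in the lymph node line, a log2 fold change of 2.57 with a standard error of 0.09 (limma, adjusted p = 4.9e-06). In B16-F1R2L, with a mean of 22.5 ± 1.72 (SD, n = 2), the log2 fold change against B16-F1 was 2.19 (limma, adjusted p = 8e-06). In B16-F1R2L against B16-F1R2 Fn1 fell by 0.37 on the log2 scale (limma, adjusted p = 0.033), a call lost in 10 of 17 alternative settings. That call depended on the libraries, with an adjusted p of 0.12 when B16-F1R2 replicate 2 was left out, 0.15 without B16-F1R2L replicate 2, 0.061 without B16-F1R2 replicate 1, and 0.064 and 0.063 without B16-F1 replicate 1 or 2 (limma). An exon of Fn1 overlaps Apol7d on the opposite strand, and the strand setting of the counting is not given in the sources used here. Of the 50-base stretches of Fn1, 2.38% recurred in protein-coding transcripts of another gene, the only ones searched. Apol7d itself stayed between 0 and 0.325 FPKM.

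In bulk RNA, fewer cells that express a gene and less RNA per cell cannot be told apart, here and for every gene below. Fn1 and Postn are also products of fibroblasts. Of 7 fibroblast markers, Dcn, Lum and Thy1 were listed at 0 in all libraries and only Col1a2 reached 1 FPKM. The list summed to 0.76 to 0.881 FPKM in the parental line, 1.21 to 1.29 in the lymph node line and 1.89 to 2.33 in the lung line. Col1a2, a chain of type I collagen, was called higher in the lymph node line, by 0.59 (limma, adjusted p = 0.031, kept in 10 of 17 alternatives), and in the lung line, by 1.39 (limma, adjusted p = 0.00099). In these comparisons with B16-F1 it moved with Fn1 and Postn. In B16-F1R2L against B16-F1R2, however, Col1a2 rose by 0.8 (limma, adjusted p = 0.028, kept in 11 of 17 alternatives). There Fn1 fell, and Postn, at -0.02, did not pass (limma, adjusted p = 0.96). Like Pecam1 above and Lyz2 below, Col1a2 was under 1 FPKM in both B16-F1 libraries and passed the filter only through the metastatic lines. The part of these markers in the values of Fn1 and Postn was not tested.

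Spp1 lies on chromosome 5 from 104864137 to 104870069 on the plus strand. It measured 0.609 and 0.688 FPKM in the parental line, 15.7 and 16.3 in the lymph node line, and 31.7 and 32.6 in the lung line. The lines did not overlap, and the level increased at each step from B16-F1 to B16-F1R2 to B16-F1R2L. In reads, this corresponded to an estimated 12 and 13 in the parental line, 313 and 346 in the lymph node line, and 627 and 706 in the lung line. Spp1 rose by a log2 fold change of 4.43 with a standard error of 0.08 in the lymph node line against B16-F1 (limma, adjusted p = 4.1e-07), and by 5.43 in the lung line against B16-F1 (limma, adjusted p = 1.8e-07). With the metastatic lines compared directly, it was 2.01-fold higher in the lung line on the scale of FPKM + 0.1, a log2 fold change of 1 with a 95% interval of 0.81 to 1.19 (limma, adjusted p = 0.0018). This last call was kept in all 17 alternative settings.

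Osteopontin belongs to the SIBLING proteins, whose genes lie side by side on this chromosome, and those neighbours were looked at after their values had been seen. Mepe, Ibsp and Dmp1 were listed at 0 in every B16-F1 and B16-F1R2 library, and Ibsp also in B16-F1R2L, where Mepe reached 0.0396 and 0.0682 FPKM and Dmp1 0 and 0.0205. On the other side, Pkd2 measured 9.17 and 8.99 FPKM in the parental line and 7.82 and 7.89 in the lymph node line, a log2 fold change of -0.21 (limma, adjusted p = 0.049). None of these genes differed by as much as Spp1. Spp1 is also made by macrophages, and of 7 leukocyte markers Ptprc, Emr1 and Cd3e were listed at 0 in every library. That list summed to 1.19 to 2.39 FPKM in the parental line, 1.97 to 3.12 in the lymph node line and 3.21 to 4.35 in the lung line. Lyz2, a macrophage lysozyme, moved with Spp1, by log2 fold changes of 1.36 in the lymph node line (limma, adjusted p = 0.044, lost in 11 of 17 alternatives) and 2.07 in the lung line (limma, adjusted p = 0.0092) against B16-F1. Cd68, the other tested gene of the list, did not pass in either, at 0.02 and 0.32 (limma, adjusted p = 0.97 and 0.6). The part of these markers in the values of Spp1 was not tested.

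Tenascins are large glycoproteins of the matrix, tenascin C being typical of embryos, wounds and tumour stroma and tenascin X of loose connective tissue, where it associates with collagen fibrils. Tnxb, the gene of tenascin X, lies on chromosome 17 from 34807480 to 34856760 on the plus strand. It was listed at 0 and 0.00942 FPKM in the parental line, against 2.06 and 2.08 in the lymph node line and 2.37 and 2.44 in the lung line. An estimated 0 and 1 reads in B16-F1 thus faced 336 and 362 in the lymph node line and 384 and 433 in the lung line. The ratio of summed reads per depth was 644 in the lymph node line (exact 95% interval 115 to 25500) and 749 in the lung line (134 to 29600), intervals that cover counting error only. Tnxb rose in both metastatic lines, by fitted log2 fold changes of 4.37 (limma, adjusted p = 1.2e-05) and 4.58 (limma, adjusted p = 9e-06) with B16-F1 as the reference. Because B16-F1 was near 0, the fitted value depended on the pseudocount and ranged from 1.61 to 7.22 for B16-F1R2 over the alternatives, with the call kept in each. Between the metastatic lines the log2 fold change of 0.21, with a 95% interval of -0.26 to 0.68, did not pass (limma, adjusted p = 0.46).

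Exons of Tnxb overlap the pseudogene Cyp21a2-ps on the opposite strand, and sequence shared with that pseudogene was not tested. No 50-base stretch of Tnxb recurred in the protein-coding transcripts of another gene, the only ones searched. Of its neighbours, chosen after their values had been seen, Atf6b went from 52.0 and 51.0 FPKM in the parental line to 38.3 and 37.0 in the lymph node line and fell by 0.45 on the log2 scale (limma, adjusted p = 0.0014). C4b, a complement gene downstream of it, was too low to be tested, at 0.0308 and 0.0161 FPKM in the parental line, 0.305 and 0.343 in the lymph node line, and 0.82 and 0.668 in the lung line. Tnc, on chromosome 4 from 63620819 to 63681760 on the minus strand, was listed at 0 in 5 of the 6 libraries and at 0.011 FPKM in the other, B16-F1 replicate 2, which is about 1 read. No difference in Tnc was therefore detectable at this depth.

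Sparc encodes osteonectin, a collagen-binding glycoprotein, and lies on chromosome 11 from 55208002 to 55233582 on the minus strand. It measured 348 and 343 FPKM in the parental line, 393 and 395 in the lymph node line, and 300.0 and 281 in the lung line. The lines did not overlap, yet they differed far less than for Fn1 or Spp1. Sparc rose by a log2 fold change of 0.19 in the lymph node line (limma, adjusted p = 0.014) and fell by 0.25 on the log2 scale in B16-F1R2L (limma, adjusted p = 0.0047), each against B16-F1. The fall in B16-F1R2L did not pass after quantile normalization (limma, adjusted p = 0.057), nor did the rise in B16-F1R2 (0.059), which was also lost when B16-F1 replicate 1 (limma, adjusted p = 0.073) or replicate 2 (limma, adjusted p = 0.095) was left out. In B16-F1R2L against B16-F1R2 Sparc fell by 0.44 on the log2 scale with a 95% interval of -0.55 to -0.33 (limma, adjusted p = 0.0043).

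Postn encodes periostin, a matricellular protein of periosteum and tumour stroma that binds integrins, and lies on chromosome 3 from 54165031 to 54194961 on the plus strand. It measured 0.706 and 0.625 FPKM in the parental line, 1.14 and 0.964 in the lymph node line, and 1.09 and 0.975 in the lung line. The metastatic libraries were all above those of B16-F1, but every value was low. Postn passed the threshold narrowly in B16-F1R2, with a log2 fold change of 0.59 (limma, adjusted p = 0.038), and in B16-F1R2L, with 0.57 (limma, adjusted p = 0.042). Neither call was stable, and without a filter both were lost (limma, adjusted p = 0.13 and 0.14). Leaving out B16-F1 replicate 1 or 2, or B16-F1R2 replicate 1 or 2, gave adjusted p-values of 0.061, 0.12, 0.16 and 0.058 for B16-F1R2, and leaving out any of the 6 libraries gave 0.051 to 0.14 for B16-F1R2L (limma). Under quantile normalization the sign turned, to log2 fold changes of -0.31 (limma, adjusted p = 0.36) and -0.83 (limma, adjusted p = 0.038). With a block for the replicate number, the B16-F1R2L value had an adjusted p of 0.051 (limma).

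Thrombospondins 1 and 2 are matricellular glycoproteins known as inhibitors of blood vessel growth, and thrombospondin 1 also activates latent TGF-beta. Both genes stayed under the filter, so their tests come from a fit of all 23951 genes that was added after seeing the data. Thbs2, on chromosome 17 from 14802507 to 14831269 on the minus strand, measured 0.507 and 0.531 FPKM in the parental line, 0.0125 and 0 in the lymph node line, and 0.0129 and 0 in the lung line. The estimated reads were 39 and 39 in the parental line against 1 and 0 in each of the metastatic lines. The ratio of summed reads per depth, B16-F1 over the metastatic line, was 84.5 for B16-F1R2 (exact 95% interval 14.7 to 3380) and 85.1 for B16-F1R2L (14.8 to 3400), which cover counting error only. The fitted log2 fold changes were -2.55 (limma without a filter, adjusted p = 0.0016) and -2.54 (limma without a filter, adjusted p = 0.0017), against 10.5% and 10.0% of all genes called lower in that fit. With other pseudocounts and settings the first value lay between -5.14 and -0.59, and the call was kept in all 15 alternatives of each comparison.

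Thbs1, on chromosome 2 from 117937612 to 117952869 on the plus strand, measured 0.954 and 1.19 FPKM in the parental line, 0.525 and 0.397 in the lymph node line, and 0.359 and 0.339 in the lung line. The metastatic libraries were all below those of B16-F1. The log2 fold change of -1.07 in the lymph node line did not pass (limma without a filter, adjusted p = 0.05), but it passed with a pseudocount of 1 (adjusted p = 0.026), after quantile normalization (0.019) and without a trend (0.035). Thbs1 fell by 1.38 on the log2 scale in B16-F1R2L (limma without a filter, adjusted p = 0.028). The latter call was lost on leaving out any of the 6 libraries, with adjusted p-values of 0.06 to 0.13 (limma without a filter), and under the replicate block, with 0.084. With the metastatic lines compared directly, the log2 fold change was -0.31 with a 95% interval of -0.95 to 0.32 (limma without a filter, adjusted p = 0.65).

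The CCN proteins Cyr61 and Ctgf bind integrins and heparan sulphate proteoglycans. Cyr61, on chromosome 3 from 145309935 to 145312949 on the minus strand, measured 12.8 and 8.75 FPKM in the parental line, 12.8 and 15.5 in the lymph node line, and 7.66 and 8.55 in the lung line. The B16-F1 libraries were widely spread, and each metastatic line came close to one of them. Neither comparison with B16-F1 passed, with log2 fold changes of 0.41 (95% interval -0.03 to 0.85; limma, adjusted p = 0.1) and -0.38 (95% interval -0.82 to 0.06; limma, adjusted p = 0.12). Here a B16-F1 library decided the outcome. Without replicate 1 the difference of B16-F1R2 was 0.68 (limma, adjusted p = 0.016), and without replicate 2 it was 0.14 (limma, adjusted p = 0.45). That of B16-F1R2L was -0.11 without replicate 1 (limma, adjusted p = 0.55) and -0.65 without replicate 2 (limma, adjusted p = 0.017). Between the metastatic lines Cyr61 fell by 0.79 on the log2 scale (limma, adjusted p = 0.029). Leaving out any library of these lines ended that call, with adjusted p-values of 0.083 and 0.12 without B16-F1R2 replicate 1 or 2, and 0.1 and 0.098 without B16-F1R2L replicate 1 or 2 (limma).

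Ctgf, on chromosome 10 from 24315248 to 24318489 on the plus strand, measured 2.09 and 2.36 FPKM in the parental line, 0.617 and 1.24 in the lymph node line, and 0.731 and 0.962 in the lung line. All metastatic libraries were below B16-F1, and the B16-F1R2 range enclosed that of B16-F1R2L. Ctgf fell by 1.25 on the log2 scale in B16-F1R2 (limma, adjusted p = 0.015) and by 1.31 in the lung line (limma, adjusted p = 0.012). The B16-F1R2 value was -0.8 without B16-F1R2 replicate 1 and -1.7 without replicate 2. The first call was lost without B16-F1 replicate 1 or 2, with adjusted p-values of 0.05 and 0.073, and the second without B16-F1 replicate 2 or B16-F1R2L replicate 1, with 0.065 and 0.064 (limma). Neither passed in the fit without a filter (limma, adjusted p = 0.13 and 0.11). In B16-F1R2L against B16-F1R2 the difference of -0.06 had a 95% interval of -0.81 to 0.69 (limma, adjusted p = 0.91). The ratio of Cyr61 to Ctgf, per length, was 6.1 and 3.71 in the parental line, 20.8 and 12.5 in the lymph node line, and 10.5 and 8.89 in the lung line, so the 2 CCN genes differed from each other most in B16-F1R2. An exon of Ctgf overlaps Gm15270 on the opposite strand.

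Counted over the tested members, 5 were called higher and 1 lower in the lymph node line than in the parental line, where 55.4% of all tested genes were called, 28.2% higher and 27.2% lower. In B16-F1R2L against B16-F1 the counts were 4 higher and 2 lower, where 56.7% of all genes were called, 29.5% higher and 27.1% lower. For the lung line against the lymph node line 1 was higher and 3 were lower, where 22.6% of all genes were called, 12.1% higher and 10.5% lower. The median log2 fold changes of the tested members were 0.586, 0.567 and -0.059, beside 0.005, 0.017 and 0.022 over all tested genes. These counts describe the 7 tested genes only. Several of them changed when a library was left out, as did the shares of all genes called between the metastatic lines. Spp1, Tnxb and Postn reached 1 FPKM in the metastatic lines alone, so their difference helped them past the filter. Ctgf was likewise at 1 FPKM in both libraries of B16-F1 alone. Thbs1, Thbs2 and Tnc, which were higher in neither metastatic line than in B16-F1, are not in the counts. With an absolute log2 fold change of at least 1 also required, Fn1, Spp1 and Tnxb were called higher and Ctgf lower in both metastatic lines against B16-F1, where 10.1% (lymph node line) and 10.7% (lung line) of all tested genes were called, and Spp1 alone was called between the metastatic lines, where 1.23% were. The share of 55.4% called is itself high, so passing the test sets a member little apart.

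In B16-F1 the order of the levels was Sparc at 345 ± 3.37 FPKM (SD, n = 2), Cyr61 at 10.8 ± 2.84, Fn1, Ctgf at 2.23 ± 0.189 and Thbs1 at 1.07 ± 0.168, followed by Postn and Spp1, whose libraries overlapped, Thbs2, and Tnc and Tnxb, which also overlapped. In B16-F1R2 it was Sparc at 394 ± 1.47, Fn1, Spp1 at 16 ± 0.363, Cyr61 at 14.2 ± 1.86 and Tnxb at 2.07 ± 0.0128, then Postn and Ctgf, which overlapped, and Thbs1, with Thbs2 and Tnc overlapping near 0. In B16-F1R2L Spp1, at 32.2 ± 0.644, moved ahead of Fn1 to follow Sparc at 291 ± 13.6. Spp1 stood at position 11057 of all genes in B16-F1, 5046 in the lymph node line and 2936 in the lung line, while Sparc stayed among the top 1.31% in every line.

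**Figure D2:**
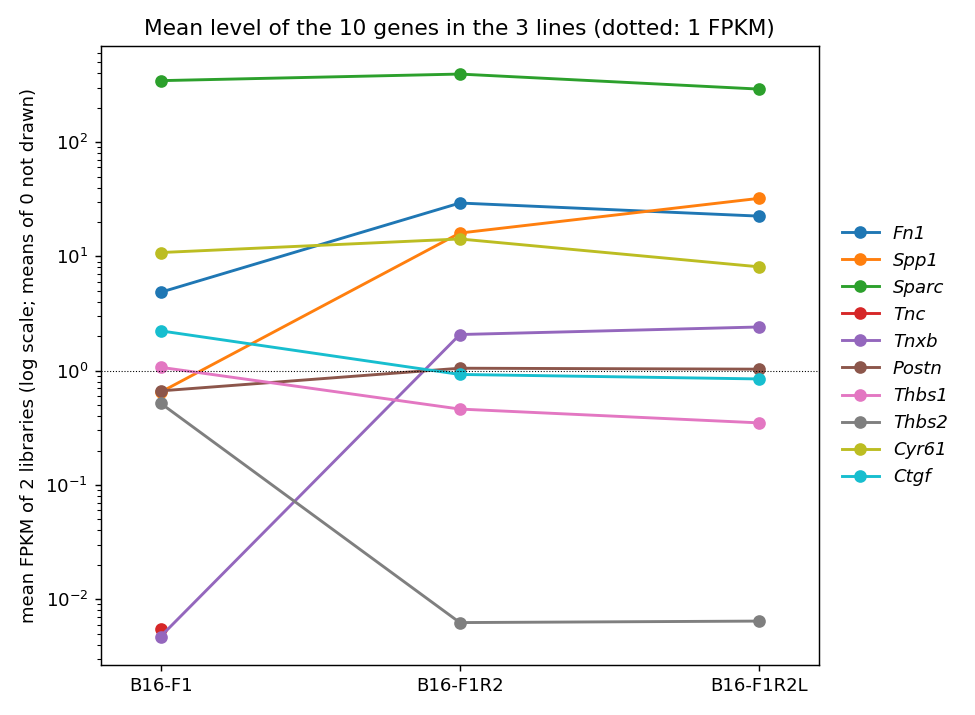
Mean FPKM of 2 libraries for each gene in the 3 lines on a log axis, with the dotted line at 1 FPKM and means of 0 left out. Spp1 and Tnxb climbed across the dotted line from B16-F1 to B16-F1R2, Thbs2 dropped towards 0, and Sparc stayed at the top, between 291 and 394 FPKM.

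Summed without Sparc, the members measured 22.4 and 19.1 FPKM in the parental line, 60.1 and 67.8 in the lymph node line, and 67.7 and 67.3 in the lung line. Sparc held 94.0% and 94.7% of the members' sum in B16-F1 but 81.6% and 80.7% in B16-F1R2L. The ratio of Spp1 to Fn1, per length, was 0.129 and 0.139 in the parental line, 0.58 and 0.518 in the lymph node line, and 1.34 and 1.53 in the lung line. The metastatic lines thus had similar sums of the other 9 genes with a different makeup, Fn1 leading in B16-F1R2 and Spp1 in the lung line.

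The relatives of these genes mostly stayed under the filter. Of 21 other thrombospondin, tenascin, CCN, SPARC and SIBLING family genes, 5 reached the filter, Wisp3 through the metastatic lines alone, so the values over these 5 describe only the genes that passed. In B16-F1R2 against B16-F1, 3 were called higher and 1 lower, with a median log2 fold change of 1.664 (all genes 0.005, with 55.4% called). Wisp1, a CCN family gene of Wnt signalling, measured 4.42 and 4.15 FPKM in the parental line, 18.3 and 18.2 in the lymph node line, and 23.8 and 26.3 in the lung line, and rose by 2.06 (limma, adjusted p = 4.5e-06). Wisp3, another CCN gene, rose by 3.32 (limma, adjusted p = 2e-04) and Fstl1, a SPARC family gene, by 1.66 (limma, adjusted p = 4.9e-05), while Sparcl1 fell by 0.37 on the log2 scale (limma, adjusted p = 0.0012). In B16-F1R2L against B16-F1, where 56.7% of all genes were called, 3 relatives were higher and 1 was lower, Thbs3, which fell by 0.42 on the log2 scale (limma, adjusted p = 0.026), a call lost without either B16-F1 library or B16-F1R2L replicate 1. With the metastatic lines compared directly, Fstl1, Wisp1 and Sparcl1 were higher, with log2 fold changes of 0.7, 0.46 and 0.3 (limma, adjusted p = 0.0096, 0.011 and 0.013), all of which were lost without B16-F1R2 replicate 1 or B16-F1R2L replicate 2.

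Most receptors for these proteins were measured in every line, while Cd36, a thrombospondin receptor, was at 0 in all libraries, and Itgb6, Itgb8 and Itga8 stayed between 0 and 0.276 FPKM. Of 16 listed integrin chains, syndecans and other receptors, 12 were tested, and 6 were called higher and 3 lower in the lymph node line than in the parental line, with a median log2 fold change of 0.141 (all genes 0.005, with 55.4% called). Itgb1, the beta chain shared by most fibronectin receptors, measured 192 and 191 FPKM in the parental line, 190 and 191 in the lymph node line, and 194 and 206 in the lung line, and did not pass (log2 fold change -0.01, limma, adjusted p = 0.89). Cd44, an osteopontin and hyaluronan receptor, likewise measured 92.0 and 89.8 FPKM in the parental line and 85.6 and 90.0 in the lymph node line (log2 fold change -0.05, limma, adjusted p = 0.42). Higher were Lrp1, an endocytic receptor that clears thrombospondins, by 2.05 (limma, adjusted p = 2.1e-05), the syndecan Sdc4 by 0.85 (limma, adjusted p = 8.3e-05) and Itga5, the alpha chain of the classical fibronectin receptor, by 0.63 (limma, adjusted p = 0.00065). Lower were Itgav and Itgb3, whose products pair as a receptor of osteopontin and fibronectin, each by a log2 fold change of -0.4 (limma, adjusted p = 0.0043 and 0.029), and Cd47, a thrombospondin receptor, by -0.34 (limma, adjusted p = 0.0068). In B16-F1R2L against B16-F1, where 56.7% of all genes were called, 7 were higher and 2 lower. The 2 became 0 without B16-F1 replicate 1 or either B16-F1R2L library, and 1 without B16-F1 replicate 2 or either B16-F1R2 library. Itgb3 was now higher, by 0.39 (limma, adjusted p = 0.031). Between the metastatic lines 6 were higher and 1 lower, where 22.6% of all genes were called, with Itga9 and Itgb3 furthest up at log2 fold changes of 0.79 (limma, adjusted p = 0.0031) and 0.78 (limma, adjusted p = 0.01), and Sdc1 down at -0.25 (limma, adjusted p = 0.027). These counts rest on single libraries, since the 6 became 1 without B16-F1R2 replicate 1 or B16-F1R2L replicate 2 and 3 without B16-F1R2L replicate 1, and the 1 lower became 0 without any of these or without either B16-F1 library.

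Since Cyr61 and Ctgf are known targets of YAP and TAZ, the components of that pathway and 20 other target genes were set beside them. Of 10 components, all tested, 1 was called higher and 3 lower in the lymph node line than in the parental line, with a median of -0.052 (all genes 0.005, with 55.4% called). The 1 higher became 2 without B16-F1 replicate 1 or B16-F1R2 replicate 1. Yap1 had means of 52.7 FPKM in the parental line, 51.6 in the lymph node line and 48.3 in the lung line, and did not pass in B16-F1R2 (log2 fold change -0.03, limma, adjusted p = 0.63). Wwtr1, the gene of TAZ, fell by 0.53 on the log2 scale (limma, adjusted p = 0.0035), the angiomotin family gene Amotl1 by 0.44 (limma, adjusted p = 0.00051) and the kinase gene Lats1 by 0.22 (limma, adjusted p = 0.049), while Tead2 rose by 0.92 (limma, adjusted p = 0.00012). The 3 lower became 2 on leaving out any library of these 2 lines. Of the other target genes, 15 were tested, and 8 were higher and 2 lower, with a median of 0.412 (all genes 0.005, with 55.4% called). Axl, Ccdc80 and Rbms3 were under 1 FPKM in both B16-F1 libraries and passed the filter through the metastatic lines, so the count and median cover the genes that passed and not the list. Ccdc80, a secreted matrix protein gene, rose by 6.49 (limma, adjusted p = 5.2e-07), Rbms3 by 3.87 (limma, adjusted p = 1.7e-05) and the receptor kinase gene Axl by 2.4 (limma, adjusted p = 4.2e-05). Amotl2 fell by 0.45 on the log2 scale (limma, adjusted p = 0.0027) and Ptpn14 by 0.17 (limma, adjusted p = 0.036), but the 2 lower became 1 without either B16-F1 library or B16-F1R2 replicate 2. Ctgf, which is not counted in this list, went the way of its 2 lower genes. In B16-F1R2L against B16-F1, where 56.7% of all genes were called, 8 targets were higher and 1 lower, and 3 components were higher and 2 lower. The 1 lower target became 0 without B16-F1 replicate 2 or B16-F1R2L replicate 2, and the 2 lower components became 1 without any one library but B16-F1R2L replicate 2, without which they were 3. In B16-F1R2L against B16-F1R2 limma called 0 of the 10 components, with 1 higher and 1 lower at an unadjusted p under 0.05, and among the targets Gadd45a was higher, by 1.09 (limma, adjusted p = 0.0019), and Axl lower, by a log2 fold change of -0.69 (limma, adjusted p = 0.023), where 22.6% of all genes were called. The call of Axl was lost without either B16-F1R2 library or B16-F1R2L replicate 2, and 1 component was called higher without B16-F1R2L replicate 1.

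SRF and its MRTF coactivators, which act on CArG boxes, also drive Cyr61, Ctgf, Thbs1 and contractile genes in other cells. Of 12 listed genes, 9 were tested, and 5 were higher and 3 lower in the lymph node line than in the parental line, with a median of 0.33 (all genes 0.005, with 55.4% called). Myl9, Tpm2 and Tagln were under 1 FPKM in both B16-F1 libraries and passed the filter through the metastatic lines, so the values cover the genes that passed and not the list. The myosin light chain gene Myl9 rose by 6.29 (limma, adjusted p = 7.5e-06) and the tropomyosin genes Tpm2 and Tpm1 by 4.39 (limma, adjusted p = 1.3e-05) and 0.71 (limma, adjusted p = 4.2e-05). Mkl2, Actn1 and Srf fell by 0.37, 0.24 and 0.19 on the log2 scale (limma, adjusted p = 0.02, 0.013 and 0.049), and the 3 lower became 0 without B16-F1 replicate 1 or 2 or B16-F1R2 replicate 1. In B16-F1R2L against B16-F1 the counts were 4 higher and 3 lower, where 56.7% of all genes were called, and the 3 became 1 without B16-F1 replicate 2. For the lung line against the lymph node line, where 22.6% were called, the only call was Tpm1, which fell by 0.3 on the log2 scale (limma, adjusted p = 0.0088). That 1 lower became 2 without either B16-F1 library and 0 without B16-F1R2L replicate 2.

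**Figure D3:**
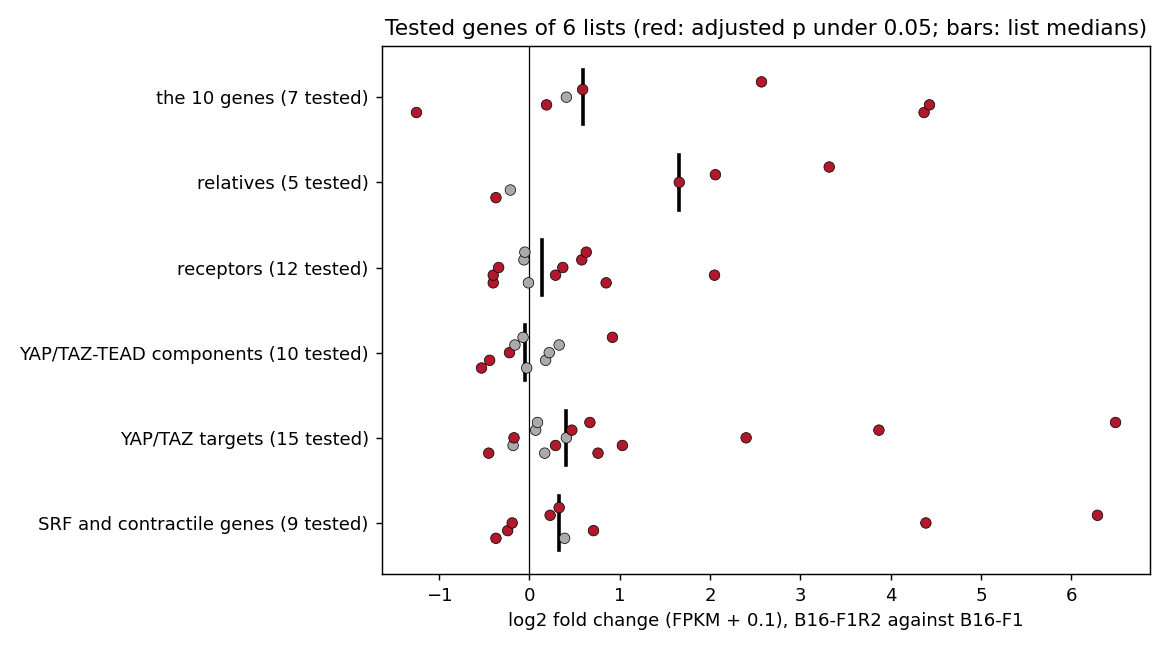
Log2 fold changes of FPKM + 0.1 in the lymph node line against B16-F1 for the tested genes of 6 lists, red where the adjusted p was under 0.05 (limma), with list medians as bars. The medians over tested genes alone were 0.586 for the 7 tested members, 1.664 for the relatives, 0.412 for the YAP and TAZ targets and 0.33 for the SRF genes, each including genes that passed the filter through the metastatic lines alone, and -0.052 for the YAP/TAZ-TEAD components.

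Likeness of pattern over the 6 libraries was measured as the Euclidean distance of log2(FPKM + 0.1) centred on each gene's mean, with the context lists left out. It is a description over 6 points that share 3 lines. Nearest to Fn1 were Pcolce, an enhancer of procollagen processing (distance 0.18; 35.0 and 37.2 FPKM in the parental line, 216 and 210.0 in the lymph node line, 182 and 161 in the lung line), and the chemokine gene Ccl5 (0.28). Nearest to Spp1 were Vav1 (0.29), a signalling gene of blood cells that measured 0 and 0.0196 FPKM in the parental line and 4.02 and 3.96 in the lung line, and Epsti1 (0.38). Nearest to Tnxb were Macc1 (0.18) and the receptor phosphatase gene Ptprf (0.19), both near 0 in the parental line. Sparc was closest to Cad and Cdc20 (both 0.08), Postn to Eif2b3 (0.07) and Schip1 (0.12), and Cyr61 to the NADPH oxidase gene Nox1 (0.23) and Mir17hg (0.43). Ctgf had no near match, its closest being Trmt61b at 0.44 and Fbrs at 0.49.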

How the data were processed

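PolyA+ RNA of 6 libraries, 2 for each of 3 lines, was sequenced by the authors with a stranded library kit, in 50-base reads from 1 end. According to the study's methods and the submitters' processing notes, the authors aligned the reads with TopHat 2.0.10, Bowtie 1.0.0 and SAMtools 0.1.1.9 to mm9. The deposited values are FPKM, with 1 column per library. The notes also name Cuffnorm and DESeq2, but the annotation and any further scaling behind the FPKM are not given in the sources used here.

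The deposited values were put on a log2 scale after adding 0.1, and a gene was tested if 2 or more libraries reached 1 FPKM (11379 of 23951). Tests used limma 3.58.1 under R 4.3.3 (eBayes with a trend, all 6 libraries, no block, Benjamini-Hochberg adjustment, threshold 0.05), since FPKM are not counts. Thbs1 and Thbs2 were tested in a fit without a filter, added after seeing the data. An exact permutation test of 2 against 2 libraries cannot give a two-sided p below 0.333 and was not used. Depth estimates rest on the smallest values seen among genes annotated with 1 transcript, and estimated reads are FPKM divided by the value of 1 read. Exact intervals of read ratios used scipy 1.17.1. The fit was tested on simulated data.

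All 10 genes are named. Of each context list (relatives, receptors, YAP and TAZ components, their targets, SRF genes), up to 3 called genes per direction with the largest change in B16-F1R2 against B16-F1 are named, together with listed genes set beside a member, and for each tested member the 2 genes of most similar pattern. Genes called in the other comparisons and chromosomal neighbours were named after their values were seen. The genes and lists were chosen with earlier results of these data known. The alternatives changed the pseudocount (1 or 0.01), the filter (none, or 5 FPKM), the scaling, the trend, the libraries fitted (the 4 compared, or 5 after dropping any of them), the block or the minimum size of a called change (1 on the log2 scale). A lone library left in a line was assumed to vary like the others. Protein sequences were not used here.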

Additional observations from a re-analysis of the deposited data

Results flagged for a closer look

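The effects of the 2 metastatic lines, each taken against B16-F1, differed for 4 of the genes by a test of the difference itself. Because B16-F1 cancels, this difference is B16-F1R2L minus B16-F1R2 on the log2 scale, tested with limma over the 11379 tested genes, of which 22.6% were called. It was 1 for Spp1 (adjusted p = 0.0018), -0.44 for Sparc (adjusted p = 0.0043), -0.79 for Cyr61 (adjusted p = 0.029) and -0.37 for Fn1 (adjusted p = 0.033). Spp1 rose in both metastatic lines, by 4.43 and 5.43, and Fn1 by 2.57 and 2.19. The difference in Fn1 was lost in 10 of 17 alternatives, with adjusted p-values of 0.061 to 0.15 on leaving out any library but B16-F1R2L replicate 1. Sparc rose by 0.19 in B16-F1R2 and fell by 0.25 on the log2 scale in B16-F1R2L. The values of Cyr61 against B16-F1, 0.41 and -0.38, did not pass, and its difference was lost whenever a library of either metastatic line was left out, with adjusted p-values of 0.083 to 0.12.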

How the results depend on the processing

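Of 348 log2 fold changes of the 7 tested members under the alternatives, 292 kept their direction and their side of the threshold, 46 fell short of it, 2 passed it and 8 turned sign. Of 75 values of Thbs1 and Thbs2 without a filter, 64 kept both, 8 fell short of the threshold and 3 passed it, the last 11 all of Thbs1. Postn turned to -0.31 and -0.83 in B16-F1R2 and B16-F1R2L against B16-F1 under quantile normalization. Between the metastatic lines Postn turned to 0.08 after rescaling each library to a sum of 1000000, 0.09 without B16-F1R2 replicate 1 and 0.06 without B16-F1R2L replicate 2 (range with a library left out -0.13 to 0.09), and Ctgf to 0.04 after rescaling, 0.39 without B16-F1R2 replicate 2 and 0.12 without B16-F1R2L replicate 1 (range -0.51 to 0.39). The cause was not tested.

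For B16-F1R2 against B16-F1, the 5 members higher became 3 without a filter, with 5 FPKM as the minimum, under quantile normalization and with a minimum size of 1 on the log2 scale, and 3 to 5 with a library left out. The 1 lower became 0 with 5 FPKM, where fewer genes are tested, and 0 to 1 with a library left out. For B16-F1R2L against B16-F1, the 4 higher became 2 with 5 FPKM, and their count dropped whichever library was left out. The 2 lower became 1 with 5 FPKM and 1 with the minimum size, and their count dropped without B16-F1R2L replicate 1. Between the metastatic lines, the 3 lower became 1 without a filter, 1 without a trend, 0 with the minimum size and 1 to 2 with a library left out. Of 1020 counts over the context and marker lists, 867 stayed within 1.5 times the main count and 153 did not.

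Over all tested genes, that minimum size left 819 higher and 328 lower for B16-F1R2 against B16-F1 (3207 and 3098 without it), 957 and 259 for B16-F1R2L against B16-F1 (3361 and 3086), and 116 and 24 between the metastatic lines (1378 and 1190). Rescaling moved the median of all genes to 0.118 for B16-F1R2L against B16-F1, with 2043 lower and 66.6% of calls higher in place of 52.1%, and to 0.129 between the metastatic lines, with 2079 higher and 489 lower, 81% of calls in place of 53.7%. The metastatic lines also gave 381 higher and 253 lower without a filter, 650 lower without a trend, 874 and 644 from their 4 libraries alone, and 297 to 904 higher and 140 to 991 lower with a library left out. The lowest counts, 297 and 140, came without B16-F1R2 replicate 1, and 329 and 210 without B16-F1R2L replicate 2.

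Deviations of same-numbered libraries correlated at 0.05, -0.1 and 0.08 between the lines, so little shared effect of the replicate number was seen. No source used here says if same-numbered libraries were prepared together. With the replicate block, B16-F1R2 had 3141 genes higher and 3040 lower, B16-F1R2L 3299 and 3031, with 1217 and 1104 between the metastatic lines, and the only member calls lost were Postn (adjusted p = 0.051, limma) and Thbs1 (0.084) in B16-F1R2L against B16-F1. Depth limits Tnc, Thbs2 and, in B16-F1, Tnxb and Spp1, which rest on few reads.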
